A study of Mus musculus with 12 samples.

Results

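The 9 genes described here mark or serve the thick ascending limb of the loop of Henle in mouse kidney: Slc12a1, Kcnj1, Cldn16, Cldn19, Cldn10, Umod, Egf, Ptger3 and Casr. They were chosen by symbol with earlier results of these data known, so counts of members beside shares of all genes do not test the set. They make up 9 of the 21899 genes in the table, and all 9 passed the filter on low values. Whole kidney messenger RNA was sequenced in 12 libraries, 3 in each of 4 groups. The db/m-GABP-OE group holds lean db/m mice labelled as overexpressing GABP, and the libraries labelled db/db-GABP-KD come from diabetic db/db mice labelled as having less GABP. The db/db-veh group, named as diabetic nephropathy, and the db/m-veh group, named as normal, received vehicle. Without a functional leptin receptor, db/db animals grow obese with diabetes, whereas db/m animals keep 1 normal copy of the receptor gene and remain lean. The sources used here do not give the agent that changed GABP, the cells it reached, or the strain, sex and age. Kidneys of 6 mice were taken per group and 3 tissues were mixed for an extraction, so the libraries of a group may share animals and the p-values may measure technical spread only.

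The thick ascending limb takes up salt without water, which dilutes the tubular fluid and helps to build the salt gradient of the medulla. Its apical cotransporter NKCC2, encoded by Slc12a1 and blocked by loop diuretics, brings in sodium, potassium and chloride. The channel ROMK, encoded by Kcnj1, returns potassium to the lumen, and the lumen-positive voltage that results drives calcium, magnesium and sodium between the cells. Claudins set which ions take that route: Cldn16 and Cldn19 form the path for calcium and magnesium, and Cldn10 a path for sodium. Umod encodes uromodulin, the most abundant protein of normal urine, and Egf the precursor of epidermal growth factor, and both are shed into the urine. Ptger3 encodes the prostaglandin E2 receptor EP3 and Casr the calcium-sensing receptor, which both restrain salt uptake. Slc12a1, Umod, Cldn16 and Cldn19 are largely restricted to this segment in the kidney, whereas Kcnj1, Egf and Ptger3 are also made further along the distal nephron. Cldn10 has another isoform in the proximal tubule, and its value here sums over isoforms.

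The sequence upstream of 4 members is shown because the results below turn on them. Each is the part of the 250 bases before a RefSeq start site (GRCm38.p6) that lies outside any GENCODE exon, written 5′ to 3′ on the strand of the gene. All letters are lower case, since neither motif reported here, CCGGAAG or TATAAA, occurs in these stretches on either strand. The stretches are chr2:125152350-125152504 on the plus strand for Slc12a1, chr7:119479283-119479512 on the minus strand for Umod, chr3:129755323-129755572 on the minus strand for Egf and chr14:118787621-118787870 on the plus strand for Cldn10. Cldn10 has another RefSeq start downstream, with chr14:118854700-118854731 outside exons, and Egf an internal one, and neither stretch is shown. Which Cldn10 start serves the thick ascending limb was not tested, so the stretch shown may belong to its other isoform.
Slc12a1: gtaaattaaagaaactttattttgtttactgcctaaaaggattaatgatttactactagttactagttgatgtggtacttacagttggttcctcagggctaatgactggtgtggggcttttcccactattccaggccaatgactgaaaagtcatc
Umod: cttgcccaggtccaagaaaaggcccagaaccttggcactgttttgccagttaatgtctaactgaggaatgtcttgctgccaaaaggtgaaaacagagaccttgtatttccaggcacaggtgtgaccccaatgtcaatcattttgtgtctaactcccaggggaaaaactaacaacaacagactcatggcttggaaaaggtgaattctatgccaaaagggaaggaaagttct
Egf: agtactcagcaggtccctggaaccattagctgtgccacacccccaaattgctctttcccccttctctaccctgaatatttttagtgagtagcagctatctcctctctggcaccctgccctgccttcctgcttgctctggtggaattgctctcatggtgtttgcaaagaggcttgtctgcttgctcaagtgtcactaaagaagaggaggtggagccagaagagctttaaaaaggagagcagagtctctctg
Cldn10: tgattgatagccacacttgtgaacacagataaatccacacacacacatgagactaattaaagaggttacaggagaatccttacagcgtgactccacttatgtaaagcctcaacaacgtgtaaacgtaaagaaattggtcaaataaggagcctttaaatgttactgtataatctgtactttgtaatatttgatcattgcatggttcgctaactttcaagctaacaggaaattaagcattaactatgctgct
RefSeq gave 12 windows of 300 bases (250 before to 50 after the start) for the 9 members. The ETS core CCGGAAG, bound by the factor family that includes GABP, occurred 45 bases before an internal Egf start and in no other member window, against 8.86% of all 32851 windows. TATAAA occurred in none of the 12 windows, against 13.6% of all windows. A match is a description of the letters and does not show a bound site.

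The deposited unit was FPKM, fragments scaled for exon length and for the total of the library, and recovered totals ran between 6.78 and 9.70 M fragments (M, 1e6). Mitochondrial genes took 47.9% to 86.0% of these, and the library labelled db/db-GABP-KD 1 had the lowest share. The mean share was 60.9% ± 2.91 in db/m-GABP-OE, 65.9% ± 15.5 in the libraries labelled db/db-GABP-KD, 78.8% ± 6.18 in db/db-veh and 71.8% ± 5.28 in db/m-veh (SD, n = 3 each). The level of the median gene differed between the groups too: the median log2 fold change over 12897 tested genes was 0.38 for db/m-GABP-OE (over db/m-veh), 0.42 for the libraries labelled db/db-GABP-KD (over db/db-veh), and -0.24 for db/db-veh (over db/m-veh). The members' fold changes and list counts are therefore also given after median of ratios scaling, which divides each library by its typical gene and leaves medians of 0.043, 0.0019 and 0.013. Gabpa, the DNA-binding subunit of GABP, averaged 3.5 ± 0.183 FPKM in db/m-GABP-OE and 2.22 ± 0.388 FPKM in db/m-veh. It averaged 4.23 ± 2.10 FPKM in the libraries labelled db/db-GABP-KD and 2.00 ± 0.324 FPKM in db/db-veh, so its transcript was not lower under the knockdown label. After scaling it averaged 2.69 ± 0.113 FPKM in db/m-GABP-OE and 2.33 ± 0.494 FPKM in db/m-veh, and 3.52 ± 0.461 FPKM in the libraries labelled db/db-GABP-KD and 2.83 ± 1.11 FPKM in db/db-veh. The scaled Gabpa values of db/m-GABP-OE (2.73, 2.57 and 2.79) lay within the range of db/m-veh (1.83, 2.81 and 2.34). Its higher level under the overexpression label thus separated the groups only as deposited. Libraries with the knockdown label are called by it throughout. In whole kidney, fewer thick ascending limb cells and less RNA per cell cannot be told apart.

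Slc12a1 was the most abundant of the 9 genes in all 12 libraries, on the FPKM scale, which corrects for transcript length. Umod ranked 2nd to 4th, Egf 2nd to 5th and Kcnj1 3rd to 5th, and these ranks overlapped, so the order of the 3 was not fixed. Cldn10 ranked 4th to 7th and Ptger3 6th to 7th. Cldn16 ranked 5th to 9th, Cldn19 6th to 9th and Casr 8th to 9th. Slc12a1, Umod, Cldn16 and Cldn19 were above 0 in every library, so the defining genes of the segment were present throughout. The recovered fragments behind a value ran between 486 and 6043 for Slc12a1 but between 8 and 37 for Cldn16 and between 4 and 66 for Casr. Cldn19 had 9, 13 and 17 fragments in the libraries labelled db/db-GABP-KD. The values of Cldn16 and Casr, and those of Cldn19 in these libraries, are thus the least precise.

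Among the salt transport genes, Slc12a1 (ENSMUSG00000027202, chr2:125152505-125230002, plus strand, GRCm38) had 115, 108 and 92.6 FPKM in db/m-GABP-OE. It had 19.0, 9.83 and 17.9 FPKM in the libraries labelled db/db-GABP-KD, 89.2, 27.6 and 48.8 FPKM in db/db-veh, and 51.6, 61.3 and 46.9 FPKM in db/m-veh. Every db/m-GABP-OE library lay above every db/m-veh library, and every library labelled db/db-GABP-KD lay below every db/db-veh library, while db/db-veh spanned the db/m-veh values. Kcnj1 (ENSMUSG00000041248, chr9:32372493-32399197, plus strand) had 10.4, 14.5 and 20.8 FPKM in db/m-GABP-OE, 4.58, 3.57 and 9.0 FPKM in the libraries labelled db/db-GABP-KD, 10.7, 4.71 and 6.13 FPKM in db/db-veh, and 8.69, 9.38 and 12.8 FPKM in db/m-veh. The groups of Kcnj1 overlapped in all 3 comparisons.

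Of the claudins, Cldn19 (ENSMUSG00000066058, chr4:119255414-119262438, plus strand) had 2.08, 3.34 and 5.71 FPKM in db/m-GABP-OE, 0.250, 0.355 and 0.567 FPKM in the libraries labelled db/db-GABP-KD, 2.14, 0.944 and 0.763 FPKM in db/db-veh, and 2.10, 3.27 and 1.05 FPKM in db/m-veh. Its values in the libraries labelled db/db-GABP-KD lay below those of all other libraries. Cldn16 (ENSMUSG00000038148, chr16:26463135-26482765, plus strand), which pairs with Cldn19 in the tight junction, had 2.17, 3.25 and 2.38 FPKM in db/m-GABP-OE, 2.62, 1.29 and 1.82 FPKM in the libraries labelled db/db-GABP-KD, 2.14, 1.66 and 1.11 FPKM in db/db-veh, and 0.746, 3.25 and 3.29 FPKM in db/m-veh. The Cldn16 groups overlapped in all 3 comparisons. Cldn10 (ENSMUSG00000022132, chr14:118787908-118875489, plus strand) had 9.53, 9.66 and 17.8 FPKM in db/m-GABP-OE, 1.10, 3.78 and 5.82 FPKM in the libraries labelled db/db-GABP-KD, 4.04, 2.05 and 1.81 FPKM in db/db-veh, and 6.88, 9.23 and 13.4 FPKM in db/m-veh. Both db/db groups lay below both db/m groups in every library for this gene.

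Of the secreted products, Umod (ENSMUSG00000030963, chr7:119462711-119479282, minus strand) had 33.5, 47.3 and 56.0 FPKM in db/m-GABP-OE, 8.70, 4.72 and 12.9 FPKM in the libraries labelled db/db-GABP-KD, 16.4, 6.43 and 5.42 FPKM in db/db-veh, and 12.4, 24.8 and 17.5 FPKM in db/m-veh. The db/m-GABP-OE values were the 3 highest of the 12, and both db/db groups overlapped each other. Egf (ENSMUSG00000028017, chr3:129677565-129755316, minus strand) had 19.6, 24.7 and 23.8 FPKM in db/m-GABP-OE, 5.76, 3.81 and 5.60 FPKM in the libraries labelled db/db-GABP-KD, 15.9, 5.13 and 10.6 FPKM in db/db-veh, and 15.4, 11.4 and 15.7 FPKM in db/m-veh. All db/m-GABP-OE values of Egf lay above all db/m-veh values, and only db/db-veh 2 reached into the range of the libraries labelled db/db-GABP-KD.

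Of the receptors, Ptger3 (ENSMUSG00000040016, chr3:157566892-157645888, plus strand) had 2.39, 4.08 and 9.62 FPKM in db/m-GABP-OE, 1.23, 0.594 and 2.13 FPKM in the libraries labelled db/db-GABP-KD, 3.73, 1.03 and 1.63 FPKM in db/db-veh, and 1.13, 5.31 and 2.86 FPKM in db/m-veh. Casr (ENSMUSG00000051980, chr16:36493696-36562141, minus strand) had 0.845, 1.44 and 0.271 FPKM in db/m-GABP-OE, 0.477, 0.370 and 0.422 FPKM in the libraries labelled db/db-GABP-KD, 0.469, 0.110 and 0.304 FPKM in db/db-veh, and 0.858, 0.560 and 0.477 FPKM in db/m-veh. Ptger3 overlapped in every comparison, and Casr separated the groups only in db/db-veh relative to db/m-veh, where the closest values were 0.469 and 0.477 FPKM. Exons of Cldn19, Egf and Umod overlap antisense genes in GENCODE, by 90 bases for Cldn19 (Gm12927), 500 and 607 bases for Egf (6330410L21Rik and Gm42697) and 539 bases for Umod (Gm44588). The sources used here do not give the strand setting of the counting, so a contribution of antisense reads to these 3 genes was not tested.

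**Figure D1:**
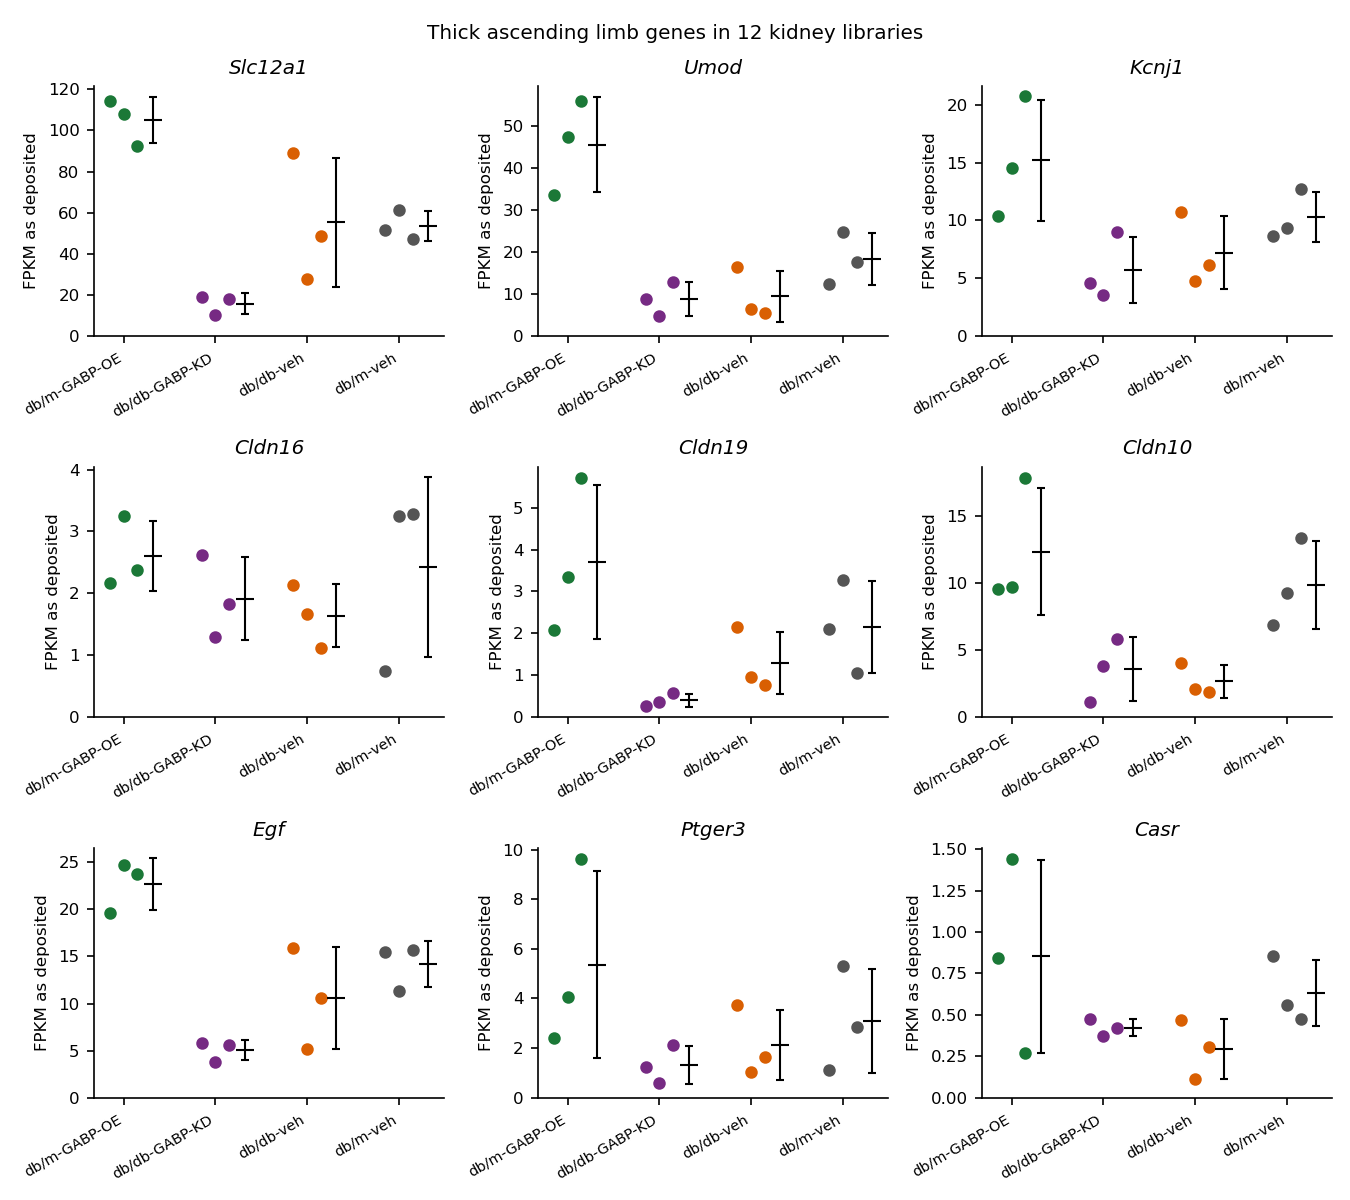
FPKM of the 9 thick ascending limb genes (1 panel each, vertical axis FPKM) in the 12 libraries, by group; points are libraries and bars the mean ± SD (n = 3). Slc12a1 stays at or below 19.0 FPKM in the libraries labelled db/db-GABP-KD, against at least 27.6 FPKM in db/db-veh, and Cldn10 stays at or below 5.82 FPKM in both db/db groups, against at least 6.88 FPKM in both db/m groups.

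In the libraries labelled db/db-GABP-KD relative to db/db-veh, Slc12a1, which encodes the salt cotransporter NKCC2, was the member with the largest difference. It averaged 15.6 ± 5.01 FPKM in the libraries labelled db/db-GABP-KD and 55.2 ± 31.3 FPKM in db/db-veh (SD, n = 3 each), which is 3.54-fold lower. On the log2(FPKM + 0.5) scale the fold change was -1.69 (SE 0.45, 95% interval -2.63 to -0.74), with a limma adjusted p of 0.34, so it did not pass as deposited. After median of ratios scaling it fell 5.02-fold, with 11.1, 11.1 and 19.6 scaled FPKM in the libraries labelled db/db-GABP-KD and 96.5, 52.2 and 60.5 in db/db-veh, and a log2 fold change of -2.29 (SE 0.33, 95% interval -3.00 to -1.58, limma adjusted p = 0.023). Among all tested genes, 10 of 12844 with the scaling and 12 of 12897 as deposited were as low or lower by fold change, counting Slc12a1 itself. The scaled call was lost when db/db-veh 1 (adjusted p = 0.20), db/db-veh 3 (0.065), db/m-GABP-OE 2 (0.062) or the library labelled db/db-GABP-KD 2 (0.15) was left out, and kept in the other 8 of 12 cases. It was also lost in a fit that allowed for the replicate number (limma adjusted p = 0.074). Without the library labelled db/db-GABP-KD 1, which stood apart in its mitochondrial share, the log2 fold change was -1.85 as deposited (adjusted p = 0.19) and -2.16 after scaling (adjusted p = 0.047).

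Egf and Cldn19 came next in the same comparison. Egf averaged 5.06 ± 1.08 FPKM in the libraries labelled db/db-GABP-KD and 10.6 ± 5.40 FPKM in db/db-veh, a log2 fold change of -0.88 (SE 0.40, limma adjusted p = 0.35). After scaling, Egf had 3.36, 4.29 and 6.10 in the libraries labelled db/db-GABP-KD and 17.2, 9.70 and 13.2 in db/db-veh, which no longer overlapped, with a log2 fold change of -1.45 (SE 0.28, adjusted p = 0.13). Cldn19 averaged 0.391 ± 0.162 FPKM in the libraries labelled db/db-GABP-KD and 1.28 ± 0.751 FPKM in db/db-veh, which is 3.29-fold lower, with a log2 fold change of -0.94 as deposited (SE 0.40, adjusted p = 0.34) and -1.28 after scaling (adjusted p = 0.51). Umod had a log2 fold change of -0.036 as deposited, with a 95% interval of -1.04 to 0.97, and -0.61 after scaling. That interval also includes the deposited values of Egf (-0.88) and Cldn19 (-0.94), and Umod was not tested against either. Kcnj1 had -0.33 and, after scaling, -0.88, and Ptger3 -0.49 and -0.93. Cldn16, Cldn10 and Casr had 0.17, 0.23 and 0.24 as deposited and -0.32, -0.22 and 0.044 after scaling, so the direction of Cldn16 and Cldn10 turned with the scaling.

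None of the 9 members passed the adjusted test as deposited in this comparison, by limma or by voom on recovered fragments, against 0.00% of all genes by limma. At an unadjusted p under 0.05, 3 of 9 were lower (Slc12a1, Egf and Cldn19), against 0.574% of all genes. The groups did not overlap, lower, for 2 of 9 (Slc12a1 and Cldn19), against 0.822% of all genes. After scaling, 1 of 9 passed the adjusted test, against 0.0389% of all genes, 4 of 9 were lower at an unadjusted p under 0.05 (Slc12a1, Egf, Kcnj1 and Cldn19), against 3.64%, and 3 of 9 were lower without overlap (Slc12a1, Egf and Cldn19), against 5.73%. All 9 lay below the all-gene median as deposited and 8 of 9 after scaling (all but Casr). The median of the 9 log2 fold changes was 0.75 under the all-gene median as deposited and 0.88 under it after scaling.

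In db/m-GABP-OE relative to db/m-veh all 9 members had positive log2 fold changes as deposited, where the median gene was higher as well. Umod, the urinary glycoprotein, averaged 45.6 ± 11.3 FPKM in db/m-GABP-OE and 18.2 ± 6.22 FPKM in db/m-veh, with a log2 fold change of 1.32 (SE 0.48, limma adjusted p = 0.19). Slc12a1 averaged 105 ± 11.3 FPKM in db/m-GABP-OE and 53.3 ± 7.36 FPKM in db/m-veh, a log2 fold change of 0.98 (SE 0.45, adjusted p = 0.31). After scaling these fold changes were 0.89 for Umod (adjusted p = 0.73) and 0.54 for Slc12a1 (adjusted p = 0.90), and the groups overlapped for both. Egf, Cldn19, Ptger3 and Kcnj1 had log2 fold changes of 0.67, 0.67, 0.69 and 0.51 as deposited and 0.24, 0.28, 0.30 and 0.09 after scaling. Cldn10, Cldn16 and Casr had 0.30, 0.24 and 0.17 as deposited and -0.12, -0.13 and -0.069 after scaling, so their direction turned with the scaling.

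As deposited, 0 of 9 members passed the adjusted test in db/m-GABP-OE by limma, against 1.90% of all genes, and 0 of 9 by voom. At an unadjusted p under 0.05, 2 of 9 were higher (Slc12a1 and Umod), against 14.5% of all genes, and 3 of 9 were higher without overlap (Slc12a1, Egf and Umod), against 30.4%, which is near the background. After scaling none of the 9 was higher at an unadjusted p under 0.05, against 5.39% of all genes, and none was higher without overlap, against 9.55%. The members above the all-gene median numbered 6 of 9 on both scales, all but Cldn10, Cldn16 and Casr.

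In db/db-veh relative to db/m-veh, the claudin gene Cldn10, whose value sums over isoforms, differed most. It averaged 2.63 ± 1.22 FPKM in db/db-veh and 9.83 ± 3.30 FPKM in db/m-veh, which is 3.73-fold lower, with a log2 fold change of -1.74 (SE 0.48, limma adjusted p = 0.24). After scaling, the log2 fold change was -1.42 (SE 0.52, adjusted p = 0.28), and the groups still did not overlap. Umod averaged 9.43 ± 6.09 FPKM in db/db-veh and 18.2 ± 6.22 FPKM in db/m-veh, with a log2 fold change of -1.03 (SE 0.48, adjusted p = 0.42) and -0.67 after scaling. Slc12a1 averaged 55.2 ± 31.3 FPKM in db/db-veh and 53.3 ± 7.36 FPKM in db/m-veh, and its log2 fold change of -0.10 as deposited was 0.28 after scaling, so no direction held. Kcnj1, Egf, Cldn19, Casr, Ptger3 and Cldn16 had -0.54, -0.53, -0.55, -0.52, -0.41 and -0.32 as deposited and -0.19, -0.16, -0.30, -0.43, -0.12 and -0.014 after scaling, and none of these 6 had an unadjusted p under 0.05 on either scale.

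None of the 9 members passed the adjusted test in db/db-veh by limma or voom as deposited, against 0.0930% of all genes by limma. At an unadjusted p under 0.05, 2 of 9 were lower (Cldn10 and Umod), against 10.7% of all genes, and 2 of 9 were lower without overlap (Cldn10 and Casr), against 14.4%. After scaling, Cldn10 alone was lower at an unadjusted p under 0.05, against 7.12% of all genes, and alone without overlap, against 8.94%. Below the all-gene median lay 8 of 9 members on both scales, all but Slc12a1.

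**Figure D2:**
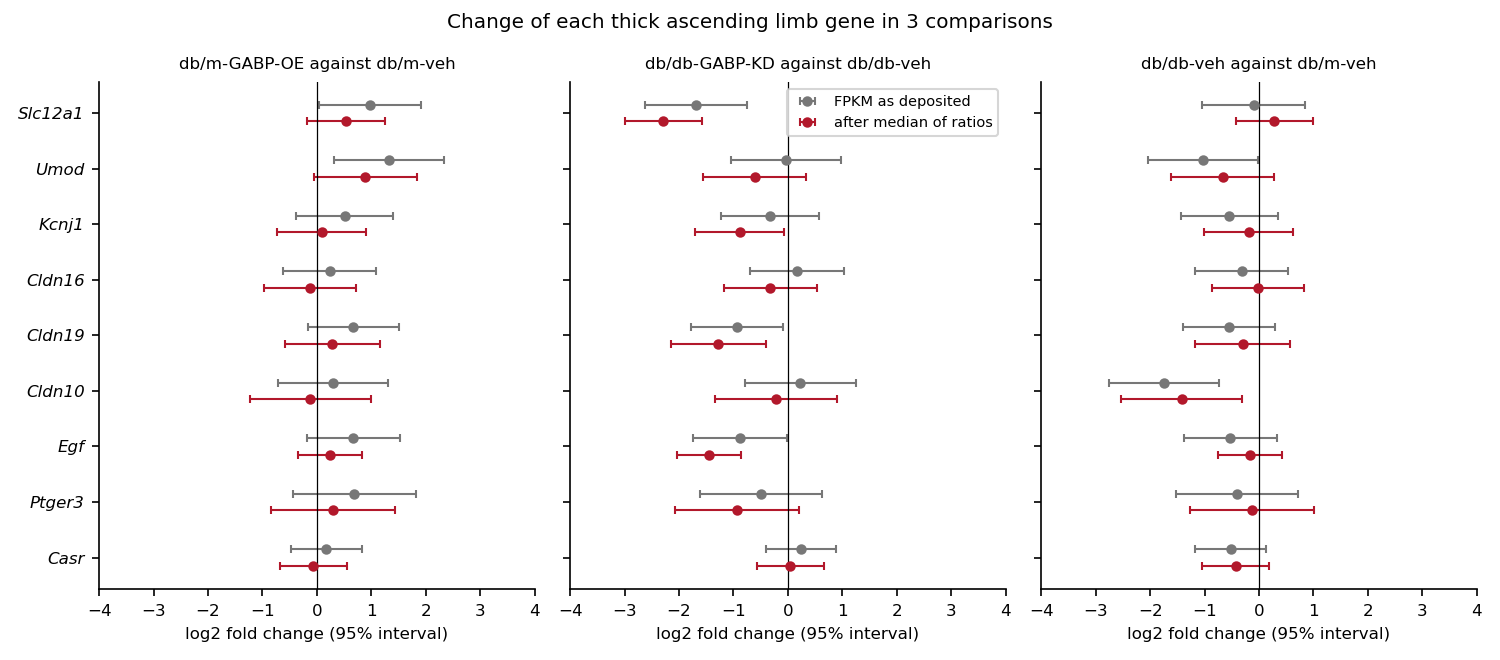
Log2 fold changes of the 9 genes in the 3 comparisons (1 panel each, horizontal axis log2 fold change), with the 95% interval of the limma fit, as deposited and after median of ratios scaling. In the libraries labelled db/db-GABP-KD relative to db/db-veh the interval of Slc12a1 runs between -2.63 and -0.74 as deposited and between -3.00 and -1.58 after scaling, while that of Umod as deposited includes 0.

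The change in GABP-OE and the change under the GABP-KD label were compared directly, as the difference of the 2 log2 fold changes. For Slc12a1 the difference was 2.67 (SE 0.63, limma adjusted p = 0.19) as deposited and 2.83 (SE 0.47, adjusted p = 0.039) after scaling. It came from 0.98 and -1.69 as deposited, and from 0.54 and -2.29 after scaling. With the nuclear FPKM sum, which scales each library by its total over non-mitochondrial genes, it was 2.81 and did not pass (adjusted p = 0.13). Nor did it pass after median of ratios in a fit that allowed for the replicate number (limma adjusted p = 0.10). For Cldn19, Egf and Umod the differences were 1.61, 1.55 and 1.36 as deposited and 1.56, 1.69 and 1.49 after scaling, and none of the 3 passed the adjusted test on either scale. As deposited, 0 of 9 passed, against 0.132% of all genes, and 3 of 9 were higher at an unadjusted p under 0.05 (Slc12a1, Egf and Cldn19), against 4.13%. After scaling, 1 of 9 passed (Slc12a1), against 0.0779% of all genes, 4 of 9 were higher at an unadjusted p under 0.05 (Slc12a1, Egf, Umod and Cldn19), against 4.79%, and the Slc12a1 call was kept in 2 of the 12 cases with a library left out. The 2 contrasts were made in mice of different genotype, so the difference also holds any difference between db/m and db/db kidneys in their answer.

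Ratios to Slc12a1 within a library, on the log2(FPKM + 0.5) scale, do not depend on the scaling between libraries other than through the pseudocount. The log2 ratio of Umod to Slc12a1 averaged -0.84 ± 0.34 in the libraries labelled db/db-GABP-KD and -2.49 ± 0.52 in db/db-veh, a difference of 1.65 (exact permutation test, two-sided, p = 0.1, the smallest that 3 against 3 allows). The ratio of Kcnj1 averaged -1.41 ± 0.49 in the libraries labelled db/db-GABP-KD and -2.77 ± 0.30 in db/db-veh, a difference of 1.36, and that of Egf -1.50 ± 0.21 and -2.31 ± 0.15, a difference of 0.81, each with p = 0.1 in the exact permutation test. Of the other 8 members, 6 were higher relative to Slc12a1 without overlap, with Cldn16 (1.86), Ptger3 (1.20) and Casr (1.93) beside these 3, while Cldn19 (0.75) and Cldn10 (1.92) overlapped. Nearly every gene did the same: 94.0% of 12896 genes were higher relative to Slc12a1 without overlap, and 0.00775% were lower, so the higher ratios were not particular to the members. The one gene lower relative to Slc12a1 in every such library was Slc22a30, named here after its values were seen.

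Relative to Slc12a1, Umod and Cldn10 had lower levels in db/db-veh than in db/m-veh. The log2 ratio of Umod to Slc12a1 averaged -2.49 ± 0.52 in db/db-veh and -1.57 ± 0.39 in db/m-veh, a difference of -0.93. The ratio of Cldn10 to Slc12a1 averaged -4.06 ± 0.52 in db/db-veh and -2.42 ± 0.57 in db/m-veh, a difference of -1.64, and for both genes the groups did not overlap, against 4.46% of all genes (p = 0.1 each in the exact permutation test, two-sided). For Umod the separation was narrow, with closest log2 ratios of -2.02 in db/db-veh 2 and -2.01 in db/m-veh 1. The other 6 members overlapped. In db/m-GABP-OE relative to db/m-veh all 8 ratios overlapped, whereas 34.4% of all genes were lower and 0.760% higher relative to Slc12a1 without overlap. These are 24 ratio comparisons in 1 family, and with a smallest p of 0.1 none could pass at 0.05 before or after adjustment.

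**Figure D3:**
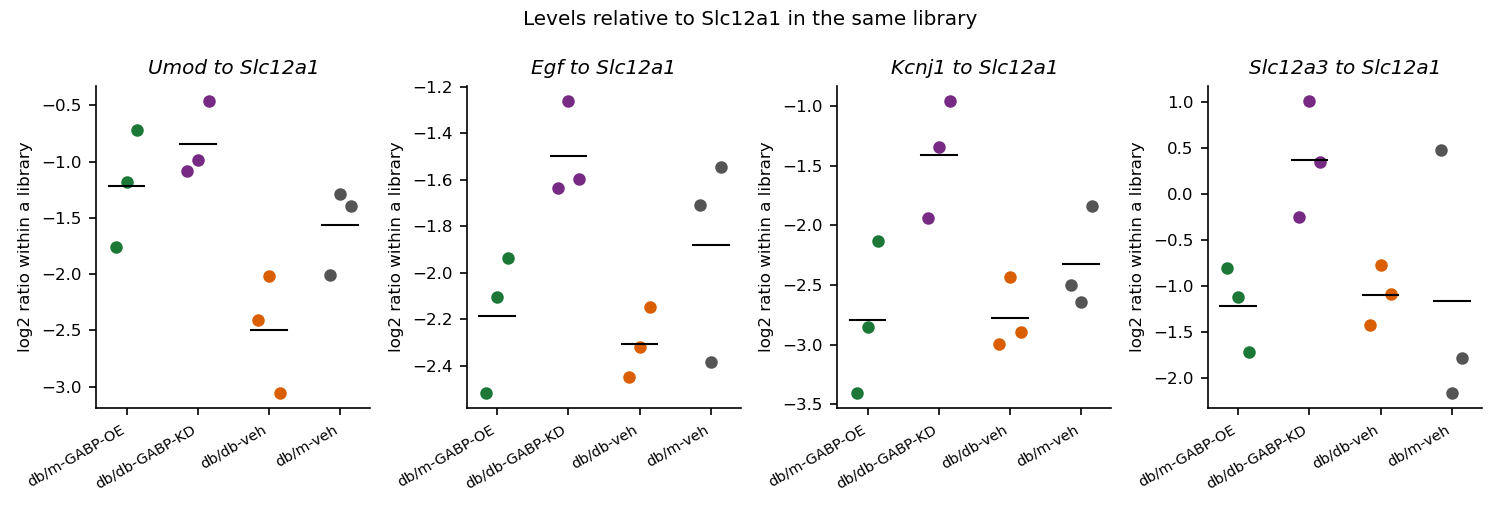
Log2 ratio of Umod, Egf, Kcnj1 and Slc12a3 to Slc12a1 within each library (vertical axis, log2 of FPKM + 0.5 over FPKM + 0.5), by group; points are libraries and lines group means. The Umod ratio averages -0.84 in the libraries labelled db/db-GABP-KD, -2.49 in db/db-veh and -1.57 in db/m-veh.

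Levels of other genes were set beside Slc12a1 and Umod by the mean absolute difference of centred log2(FPKM + 0.5) levels over the 12 libraries after scaling, among 3439 genes with a mean of at least 5 FPKM. The 5 genes nearest to Slc12a1 were Egf (0.361), Slc22a22 (0.405), Pecr (0.432), Acy1 (0.459) and Ccm2l (0.493), so the nearest of all was a member. Kcnj1 ranked 17th, Umod 28th and Cldn10 824th from Slc12a1. The 5 nearest to Umod were Vim (0.318), Wfdc15b (0.320), Ppp1r1a (0.360), Mpv17l (0.365) and Cd36 (0.377), with Kcnj1 27th, Cldn10 32nd, Egf 36th and Slc12a1 139th. The 12 points share 4 groups, and no test is attached to this likeness.

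Other genes of the thick ascending limb, outside the 9, lay nearer to the all-gene median than the members under the GABP-KD label. Of 11 basolateral and transport genes tested, which include Bsnd, 5 lay above the all-gene median in the libraries labelled db/db-GABP-KD relative to db/db-veh as deposited and 2 after scaling, and none passed the adjusted test. Their median was 0.24 under the all-gene median as deposited, against 0.75 under it for the members. Bsnd, which encodes barttin, had the largest difference from the all-gene median in that list, with a log2 fold change of -0.21 as deposited and -0.73 after scaling. Of 10 kinases and adaptors tied to NKCC2, such as Stk39 and Wnk1, 5 were above the all-gene median as deposited and 2 after scaling, and Wnk4 had a scaled log2 fold change of -1.0. All 11 transcription factors of the distal nephron lay below the all-gene median on both scales, by 0.38 at the median as deposited and 0.46 after scaling, with Irx2 (-0.73 as deposited), Irx1 (-0.52) and Irx3 (-0.24) the farthest and none past the adjusted test. The Irx genes encode homeobox factors, and Irx3 is known from the frog Xenopus to pattern the intermediate nephron.

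In db/db-veh relative to db/m-veh, 7 of 11 transport genes and 8 of 10 kinases and adaptors lay above the all-gene median as deposited, and 8 of 11 and 9 of 10 after scaling, beside 1 of 9 members on both scales. All 7 genes of the distal convoluted tubule, the segment that follows, were above the all-gene median on both scales, by 0.45 at the median as deposited and 0.52 after scaling. The principal cell genes of the collecting duct were above it in 0 of 9 cases as deposited and 2 of 9 after scaling, and the intercalated cell genes in 0 of 6 on both scales. None of these genes passed the adjusted test. In db/m-GABP-OE relative to db/m-veh, 3 of 11 transport genes lay above the all-gene median on both scales, and 8 of 10 kinases and adaptors as deposited and 7 of 10 after scaling. In the libraries labelled db/db-GABP-KD relative to db/db-veh, 5 of 7 distal convoluted tubule genes lay below the all-gene median and 2 above it, on both scales. Their median was 0.20 under it as deposited and 0.37 under it after scaling.

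**Figure D4:**
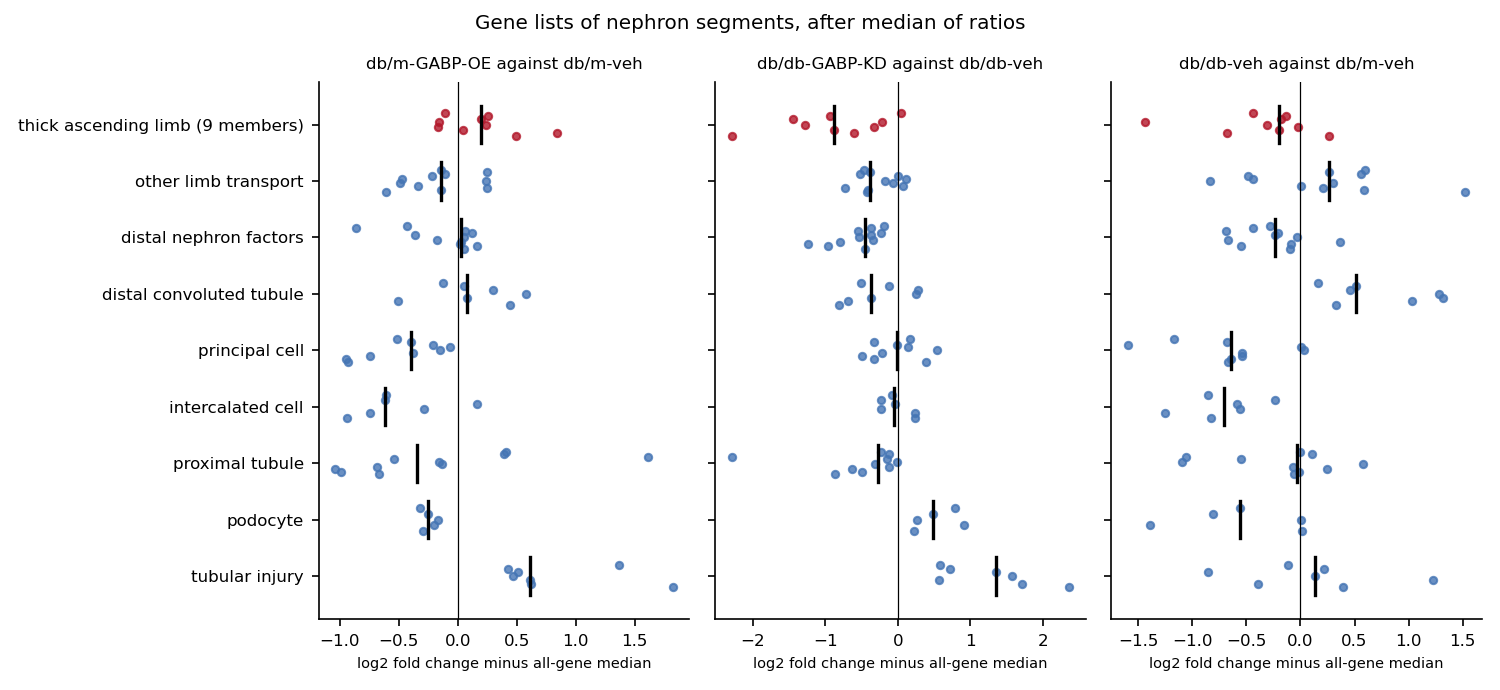
Log2 fold changes after scaling, minus the all-gene median (horizontal axis), for the members and for lists of genes of other nephron segments and cell types in the 3 comparisons (1 panel each); points are genes and bars list medians. The members' median lies 0.88 under the all-gene median in the libraries labelled db/db-GABP-KD relative to db/db-veh, while tubular injury genes lie above it at 1.36.

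Markers of injury lay above the all-gene median in both GABP comparisons. All 7 tubular injury genes, among them Havcr1 (kidney injury molecule), Lcn2 and Spp1, lay above the all-gene median in the libraries labelled db/db-GABP-KD relative to db/db-veh, by 1.5 at the median as deposited and 1.36 after scaling, and none passed the adjusted test. After scaling their summed level spanned 238 to 2034.5 FPKM in the libraries labelled db/db-GABP-KD, with the highest value in the library labelled db/db-GABP-KD 1, and 81.6 to 867 FPKM in db/db-veh, so the groups overlapped. All 7 also lay above the all-gene median in db/m-GABP-OE relative to db/m-veh, by 0.60 at the median as deposited and 0.61 after scaling, with scaled sums of 182 to 406 FPKM in db/m-GABP-OE and 91.5 to 353 FPKM in db/m-veh. The 9 members summed to 25.5 to 61.3 FPKM in the libraries labelled db/db-GABP-KD and 93.9 to 157 FPKM in db/db-veh after scaling. Slc12a1 alone gave 11.1 to 19.6 FPKM of the former and 52.2 to 96.5 FPKM of the latter. The gap between the sums thus rests largely on that gene. All 5 podocyte genes lay above the all-gene median, with summed levels after scaling of 15.9 to 21.5 FPKM in the libraries labelled db/db-GABP-KD and 9.31 to 13.4 FPKM in db/db-veh, and proximal tubule genes did so in 4 of 10 cases as deposited and 0 of 10 after scaling. No gene of these lists was at 0 in all libraries of a group, and the part of injury, cell makeup and mitochondrial share in the lower Slc12a1 level was not tested.

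In db/m-GABP-OE relative to db/m-veh, all 5 immune genes tested lay above the all-gene median on both scales, and stromal genes in 5 of 5 cases as deposited and 4 of 5 after scaling. Summed as deposited, immune genes spanned 53.1 to 108 FPKM in db/m-GABP-OE and 7.04 to 13.1 FPKM in db/m-veh, and stromal genes 185 to 259 FPKM in db/m-GABP-OE and 82.3 to 125 FPKM in db/m-veh. After scaling, the immune sums were 42.1 to 81.2 FPKM in db/m-GABP-OE and 7.19 to 15.9 FPKM in db/m-veh, and the stromal sums, 147 to 194 FPKM in db/m-GABP-OE and 75.9 to 151 FPKM in db/m-veh, overlapped. Col3a1, Ptprc, Vcam1 and Havcr1 rose as deposited, with log2 fold changes of 2.28, 1.21, 1.80 and 2.17 (limma adjusted p = 0.0497, 0.023, 0.039 and 0.038), and none of the 4 passed after scaling. The members summed to 195 to 229 FPKM in db/m-GABP-OE and 99.8 to 128 FPKM in db/m-veh as deposited, and to 154 to 172 FPKM in db/m-GABP-OE and 102 to 156 FPKM in db/m-veh after scaling. The part of these other cells in the members' levels was not tested.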

How the data were processed

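Poly(A) RNA from mouse kidney was sequenced in paired ends, per the labels' protocols, in 4 groups of 3 libraries. The authors deposited FPKM, 1 value per gene and library; the submitters' processing notes name HTSeq and GRCm39 with no version, and the sources used here do not give the aligner, annotation or strand setting. Exon lengths of GENCODE M21 (GRCm38) turned 98.0% to 98.1% of the deposited FPKM into whole fragments (tolerance 0.05), so coordinates are given in GRCm38, which differs from the build in the notes; RefSeq upstream sequences are from GRCm38.p6. No value column was left unused.

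Genes that reached 0.3 FPKM in 3 or more libraries were tested as log2(FPKM + 0.5) in 1 limma fit of all 12 libraries (limma 3.58.1, R 4.3.3, trended variance, two-sided, Benjamini-Hochberg over all tested genes, threshold 0.05). Fold changes on this scale understate those of low genes. The fit was tested on simulated data. Ratios were compared by exact permutation tests. Median of ratios scaling used genes above 1 FPKM in every library. Alternatives were pseudocounts of 0.1 and 1, no filter, a filter at 1 FPKM, scaling by the FPKM sum of non-mitochondrial genes (nuclear FPKM sum), a replicate block, only the compared groups, voom on recovered fragments, and each library left out. After seeing the data, leaving out each library and the block were repeated after median of ratios scaling.

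The members and lists were chosen with earlier results of these data known. All 9 members are named; from each other list, called genes and the up to 3 genes farthest from the all-gene median, with at least 1 FPKM in the higher group, could be named. The number of libraries per group limits the precision. No pair of libraries agreed within sampling noise (chi-square per degree of freedom 7.32 to 151). Some items searched or listed are not reported here.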

Additional observations from a re-analysis of the deposited data

How the results depend on the processing

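The log2 fold change of Slc12a1 in the libraries labelled db/db-GABP-KD was negative under every alternative run, but its call was not stable. It passed after median of ratios (-2.29, adjusted p = 0.023) and with the nuclear FPKM sum (-2.41, adjusted p = 0.032), so 1 member was called there against 0 as deposited; the difference of effects also had 1 member called after median of ratios. With each library left out, on either scale, 0 to 1 members were called in both, and Slc12a1 stayed between -2.55 and -1.27. In the difference of effects the scaled call was kept without db/m-veh 1 (adjusted p = 0.033) or the library labelled db/db-GABP-KD 3 (0.047).

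Some log2 fold changes changed sign with the scaling. After median of ratios, with and without the replicate block, they were, in db/db-veh, 0.28 for Slc12a1, in db/m-GABP-OE -0.13 for Cldn16, -0.12 for Cldn10 and -0.069 for Casr, and in the libraries labelled db/db-GABP-KD -0.32 for Cldn16 and -0.22 for Cldn10. With the nuclear FPKM sum they were, in db/db-veh, 0.61 for Slc12a1, 0.13 for Kcnj1, 0.24 for Cldn16, 0.15 for Egf and 0.13 for Ptger3, in db/m-GABP-OE -0.046 for Kcnj1, -0.26 for Cldn16, -0.25 for Cldn10 and -0.12 for Casr, and in the libraries labelled db/db-GABP-KD -0.43 for Cldn16 and -0.32 for Cldn10. None of these was past the adjusted threshold.

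With each library left out, signs also changed. For db/db-veh, log2 fold changes spanned -0.52 to 0.49 for Slc12a1, -0.85 to 0.34 for Cldn16, -0.89 to 0.092 for Cldn19, -0.88 to 0.040 for Egf and -0.88 to 0.41 for Ptger3. In db/m-GABP-OE it spanned -0.14 to 0.75 for Kcnj1, -0.68 to 0.50 for Cldn16, -0.12 to 0.98 for Cldn19, -0.39 to 0.54 for Cldn10, -0.20 to 1.13 for Ptger3 and -0.34 to 0.53 for Casr. In the libraries labelled db/db-GABP-KD it spanned -1.06 to 0.43 for Umod, -0.58 to 0.36 for Cldn16, -0.74 to 0.80 for Cldn10 and -0.092 to 0.40 for Casr, and the difference of effects -0.46 to 0.55 for Cldn16, -0.67 to 0.62 for Cldn10 and -0.39 to 0.29 for Casr. Log2 ratios to Slc12a1 changed sign in db/db-veh for Cldn16 (-0.73 to 0.14) and Ptger3 (-0.77 to 0.024), and in db/m-GABP-OE for Cldn19 (-0.72 to 0.064) and Ptger3 (-0.87 to 0.19). The cause of these changes was not tested.

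Libraries with the same replicate number deviated together in some cases and oppositely in others (correlations -0.48 to 0.38). Whether the numbers pair the libraries was therefore not settled. A replicate block left 0 members called as deposited, with an adjusted p of 0.28 for Slc12a1 in the libraries labelled db/db-GABP-KD, and after median of ratios an adjusted p of 0.074 there and 0.10 in the difference of effects. All-gene calls over the alternatives with all libraries numbered 15 to 604 in db/m-GABP-OE (245 as deposited), 0 to 6 in the libraries labelled db/db-GABP-KD (0), 1 to 41 in db/db-veh (12) and 2 to 17 in the difference of effects (17). Nuclear fragments of 1.08 to 4.39 M (M, 1e6) per library limit Casr, Cldn16 and Cldn19.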
